A study of Equus caballus with 25 samples.

Results

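The 101 transcripts described here were chosen by measured values from 7238 transcripts on an equine microarray. They had their highest mean level in horses with mild to moderate equine asthma (MEA), above both the healthy control horses (CTRL) and the horses with severe equine asthma (SEA). The choice used the authors' normalized intensities on a log2 scale, averaged over the 2 spots of each probe. A transcript was kept when its MEA mean was 5 or more, its MEA mean lay at least 0.58 above the CTRL mean, and its MEA mean lay at least 0.4 above the SEA mean. These thresholds were met by 108 transcripts, and 7 of them were left out because the study's lists of changed transcripts pair them with one of 11 symbols set aside in the rule. The differences of MEA from CTRL and from SEA were therefore fixed by the selection, and they are given below as a description, with no test.

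Total RNA came from cells of bronchoalveolar lavage (BAL) fluid, a wash of the lower airways, of 7 CTRL horses, 10 MEA horses (diagnosis IAD in the labels) and 8 SEA horses (diagnosis RAO). Each horse was one Cy3-labelled Agilent array, and the disease was natural. By the study's description the SEA horses were also older than the others, and breed differed, with all CTRL horses but only some MEA and SEA horses being standardbred. Age is thus joined to the difference of MEA from SEA and breed to that from CTRL, and neither was separated from diagnosis here. Identical arrays were not found among the 25. The 25 arrays lay on 4 slides, and slide 4 held 5 MEA, 1 CTRL and 1 SEA array. Per array, 63.5 to 90.4% of spots were well above background in CTRL (median 77.7%), 58.3 to 84.1% in MEA (median 74%) and 66.6 to 90.8% in SEA (median 72.7%). These ranges overlapped in all 3 groups.

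Equine asthma is an inflammation of the lower airways set off by inhaled dust, moulds and other particles of the stable. The mild to moderate form shows as poor performance and occasional cough, whereas the severe form brings laboured breathing at rest and airways filled with neutrophils. Lavage fluid holds alveolar macrophages, lymphocytes, neutrophils and some airway epithelial cells, so a transcript level in it is an average over a mixture of cells. Fewer cells of a type and less RNA per cell cannot be told apart in such values.

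A symbol was known for 7 of the 101 selected transcripts, against 1684 of the 4930 transcripts that passed the filter on low values. The symbols came from the study's lists of changed transcripts, which were drawn from these same arrays, so the named transcripts are those that the study had listed and are not a sample of the 101. All 101 selected transcripts passed the filter. The 7 named transcripts are NAT10, GNL3L, TSEN15, MOV10, CASP10, LGALS4 and SPATA3, and they are described gene by gene because no common function was tested. The other 94 are known here only by an Ensembl transcript identifier. The 2 of these with the largest peak, the smaller of the MEA differences from CTRL and SEA, are described with the named ones.

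The probe is what each intensity measures, and for a transcript with no symbol it is the only description of its identity in the files. The sequences below are therefore given for the 7 named and the 2 unnamed transcripts, in lower case throughout and read as in the array files. Every probe is 60 bases long; for LGALS4, GNL3L and MOV10 the first 30 bases are shown.
LGALS4: agagagaaagatcctataagactcccttct
NAT10: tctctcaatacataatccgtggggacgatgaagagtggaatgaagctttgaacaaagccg
GNL3L: tgggataggggaatacagatggaatggttt
TSEN15: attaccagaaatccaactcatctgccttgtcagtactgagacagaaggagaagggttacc
MOV10: aatgacacatcaagctgctaacaattgggg
CASP10: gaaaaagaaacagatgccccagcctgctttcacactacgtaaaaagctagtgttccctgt
SPATA3: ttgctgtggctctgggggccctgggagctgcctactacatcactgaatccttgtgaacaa
ENSECAT00000021003: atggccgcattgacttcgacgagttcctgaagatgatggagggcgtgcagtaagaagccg
ENSECAT00000005308: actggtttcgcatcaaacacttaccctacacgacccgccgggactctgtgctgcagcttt

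None of these 9 probes shared a run of 20 or more bases, on either strand, with another probe of the array. Over all 101 selected transcripts, 12 did (11.9%), against 15.6% of the 4930 tested transcripts. The GC content of the probes had a median of 45% (range 35 to 60%) in the selected transcripts and also a median of 45% (range 28.3 to 81.7%) in the tested ones. The selected probes did not stand out by length, base composition or shared sequence.

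Sharing had one direct consequence for the count. There were 5 pairs of selected transcripts that carried the same 60-base probe, so the 101 transcripts were measured by 96 distinct sequences. In addition, 4 transcripts outside the selection carried the probe of a selected one. In each of these 4 the MEA difference from CTRL lay below the threshold in the authors' values, at 0.50, 0.51, 0.55 and 0.55, while the same sequence under its selected transcripts gave between 0.65 and 0.84. Over 445 pairs of tested transcripts with one probe sequence, the MEA difference from CTRL differed between the 2 members of a pair by a median of 0.11 (90th percentile 0.27), and the MEA difference from SEA by a median of 0.081 (90th percentile 0.23). Around the 2 thresholds on differences, the step from the last transcript inside to the first outside was smaller than these gaps. Just inside, the lowest MEA means were 5.002 and 5.193, the smallest differences from CTRL 0.581 and 0.587, and the smallest differences from SEA 0.406 and 0.408. Just outside, the values were 4.885 and 4.722 for the MEA mean, 0.577 and 0.575 for the difference from CTRL, and 0.393 and 0.393 for that from SEA.

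**Figure D1:**
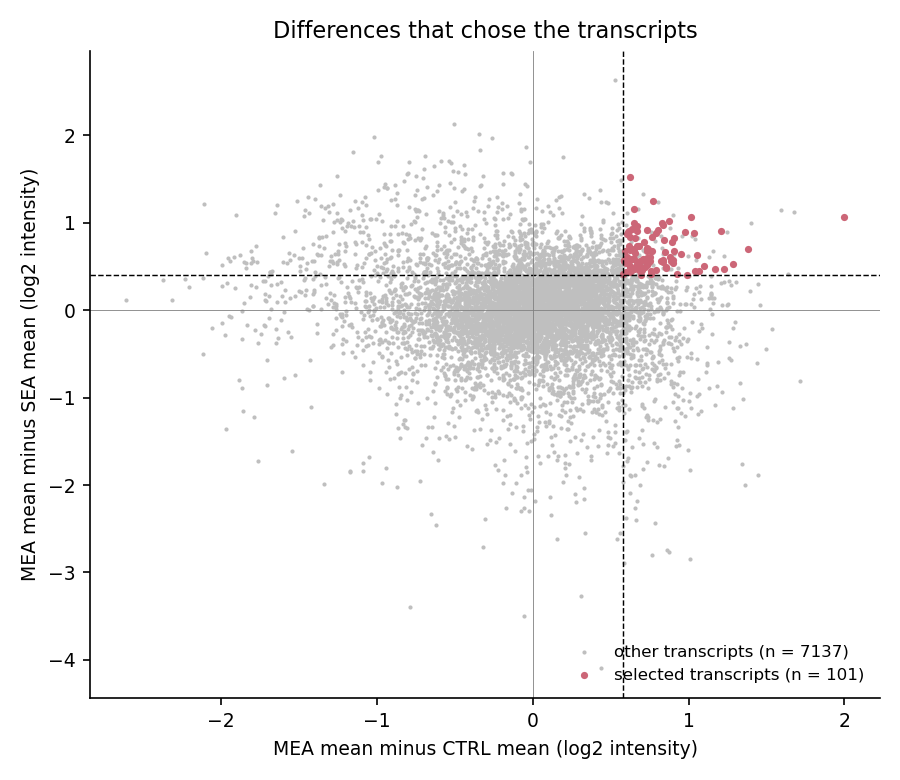
Difference of the MEA mean from the CTRL mean (x axis) and from the SEA mean (y axis), log2 intensity, authors' values, for each of the 7238 transcripts. Red points are the 101 selected transcripts and the dashed lines are the 2 thresholds; grey points beyond both lines had an MEA mean under 5 or one of the symbols set aside.

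In the values normalized here from the scanner signals, which are used from this point on, the MEA difference from CTRL had a median of 0.73 (range 0.56 to 2.06) and the MEA difference from SEA a median of 0.60 (range 0.35 to 1.53). With normexp background correction, which here added an offset of 50 to the intensities before log2, these medians were 0.40 and 0.36. Such an offset by itself makes log2 differences smaller, most at low intensities. Its part in the values given with normexp, here and below, was not separated from that of the background. The thresholds were met by 94 of the 101 in the values normalized here, by 21 with normexp background correction and by 20 in every normalization tried. A 2-fold difference was reached by 12 transcripts against CTRL, by 9 against SEA and by 1 against both. Over all 4930 tested transcripts the median differences were 0.027 and 0.036.

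The SEA difference from CTRL describes the other side of the peak. Its median over the selected transcripts was 0.12 (range -0.90 to 0.93), and the SEA mean lay above the CTRL mean in 68 of 101, against 49.6% of the tested transcripts. It was within 0.2 of zero in 52 transcripts, at or above 0.2 in 36 and at or below -0.2 in 13. The called counts were 26 of 101 higher in MEA than in CTRL, where 3.23% of tested transcripts were called higher, and 0 of 101 lower (6.51% of tested). Against SEA, 3 of 101 were called higher (0.73% of tested) and 0 lower (1.32% of tested). Called means an adjusted p under 0.1 in limma with a fold change of 1.5 or more. Because the rule used these contrasts, nothing is read from those counts. Between SEA and CTRL, whose means also entered the rule, 1 of 101 was called higher (15.9% of tested) and 0 lower (16.6% of tested). Over the 3 contrasts, 74 of the 101 were called in none of them, 23 only in MEA against CTRL, 1 only in MEA against SEA, 2 in both MEA contrasts, and 1 (TSEN15) in MEA against CTRL and SEA against CTRL.

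NAT10 encodes a nucleolar acetyltransferase that acetylates cytidines in ribosomal, transfer and messenger RNA. Its log2 intensity was 7.499 to 9.309 in CTRL (median 8.30), 8.58 to 9.63 in MEA (median 9.22) and 7.95 to 9.22 in SEA (median 8.46). All 10 MEA horses lay above the means of both other groups, and 3 lay above the highest CTRL horse and 5 above the highest SEA horse, so the ranges overlapped. The MEA mean of 9.14 ± 0.38 (SD, n = 10) was 1.80-fold the CTRL mean of 8.29 ± 0.65 (SD, n = 7) and 1.49-fold the SEA mean of 8.56 ± 0.41 (SD, n = 8). Within slides the MEA difference from CTRL ran from 0.39 on slide 2 to 1.53 on slide 4, and that from SEA from 0.094 to 1.17 on the same slides. With normexp background correction the differences were 0.64 from CTRL and 0.32 from SEA in place of 0.85 and 0.57.

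GNL3L encodes a nucleolar GTP-binding protein with a role in ribosome production. It measured 6.33 to 7.30 in CTRL (median 6.52), 6.42 to 7.80 in MEA (median 7.32) and 6.14 to 7.44 in SEA (median 6.84). The top of the control range was 1 horse, CTRL 7 on slide 4, and the next highest CTRL horse was at 6.73. The lowest MEA horse, MEA 1 at 6.42, lay inside the control range. The MEA mean of 7.34 ± 0.42 (SD, n = 10) was 1.65-fold that of CTRL and 1.44-fold that of SEA. On slide 1 the MEA mean lay below the single SEA horse, with a difference of -0.65. With normexp background correction the differences were 0.44 and 0.37 in place of 0.72 and 0.53.

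TSEN15, a subunit of the endonuclease that removes introns from transfer RNA, was not measured above background in every array. Both its spots were well above background on 4 of 7 CTRL, 10 of 10 MEA and 7 of 8 SEA arrays. Its log2 intensity was 3.16 to 4.92 in CTRL (median 3.68), 4.26 to 6.04 in MEA (median 4.84) and 3.65 to 5.55 in SEA (median 4.35). All CTRL horses but CTRL 7, again the array on slide 4, lay below every MEA horse. Its difference from CTRL was 1.21 without and 0.25 with normexp background correction, and that from SEA 0.44 and 0.17. With 75th percentile scaling the difference from CTRL was 1.285 and that from SEA 0.86. The offset of 50 in the normexp correction makes differences at such low intensities smaller by itself. Beyond that, the cause of these changes was not tested. On slide 4 both directions turned: the MEA mean there lay below the CTRL array (difference -0.21) and below the SEA array (difference -0.85).

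MOV10 encodes an RNA helicase that restrains retroviruses and mobile elements and is induced by interferon. Its values were 9.36 to 10.4 in CTRL (median 9.91), 10.07 to 10.99 in MEA (median 10.59) and 9.55 to 10.55 in SEA (median 10.19). Of the 10 MEA horses, 8 lay above all CTRL horses and 6 above all SEA horses. The MEA mean of 10.58 ± 0.27 (SD, n = 10) was 1.62-fold that of CTRL and 1.39-fold that of SEA. Against CTRL the difference had one sign on all 4 slides (0.54 to 0.82), whereas against SEA it was -0.11 on slide 1 and 0.31 to 0.79 on the others. Background correction by normexp gave 0.47 and 0.32 in place of 0.69 and 0.48.

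CASP10, an initiator caspase that acts below death receptors of the TNF receptor family, had a narrow range in the controls. It measured 5.998 to 6.601 in CTRL (median 6.25), 6.06 to 7.56 in MEA (median 6.99) and 5.996 to 7.305 in SEA (median 6.25). Here 8 of 10 MEA horses lay above every CTRL horse, and 2 lay within the CTRL range. The MEA mean was 1.57-fold the CTRL mean and 1.43-fold the SEA mean, with differences of 0.46 to 0.65 and 0.40 to 0.58 on the 4 slides. With normexp background correction the differences were 0.30 and 0.24 in place of 0.65 and 0.52. CASP10 and NAT10 were the only named transcripts with MEA the higher group in both contrasts on all 4 slides.

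LGALS4 encodes galectin-4, a lectin that binds beta-galactosides and is best known from epithelium of the gut. Its log2 intensity was 3.86 to 6.79 in CTRL (median 5.50), 5.66 to 7.16 in MEA (median 6.54) and 4.76 to 7.08 in SEA (median 5.29). All MEA horses lay above the means of the other groups, but the CTRL and SEA horses were widely spread and reached into the MEA range. The MEA mean was 2.26-fold the CTRL mean and 1.87-fold the SEA mean. Within slides the difference from CTRL ran from 0.099 on slide 1 to 1.92 on slide 3, and that from SEA from 1.72 on slide 1 to -0.029 on slide 4. With normexp background correction the differences were 0.50 and 0.52 in place of 1.18 and 0.90.

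SPATA3 is a gene named for its expression in spermatogenesis, and its role in airway cells is not known from the sources used here. It measured 6.13 to 6.64 in CTRL (median 6.38), 6.73 to 7.53 in MEA (median 7.17) and 6.12 to 7.41 in SEA (median 6.66). It was the 1 selected transcript of 101 in which every MEA horse lay above every CTRL horse, which held for 0.101% of tested transcripts. No selected transcript had all MEA horses above all SEA horses (0% of tested). The MEA mean of 7.10 ± 0.24 (SD, n = 10) was 1.63-fold the CTRL mean of 6.40 ± 0.18 (SD, n = 7) and 1.36-fold the SEA mean of 6.66 ± 0.44 (SD, n = 8). With normexp background correction its difference was 0.23 in place of 0.70 from CTRL and 0.12 in place of 0.44 from SEA. Within slides 1 to 4 the MEA difference from CTRL was 0.96, 0.35, 0.35 and 0.82. On slide 1 the MEA mean lay below the SEA horse, with a difference of -0.25.

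**Figure D2:**
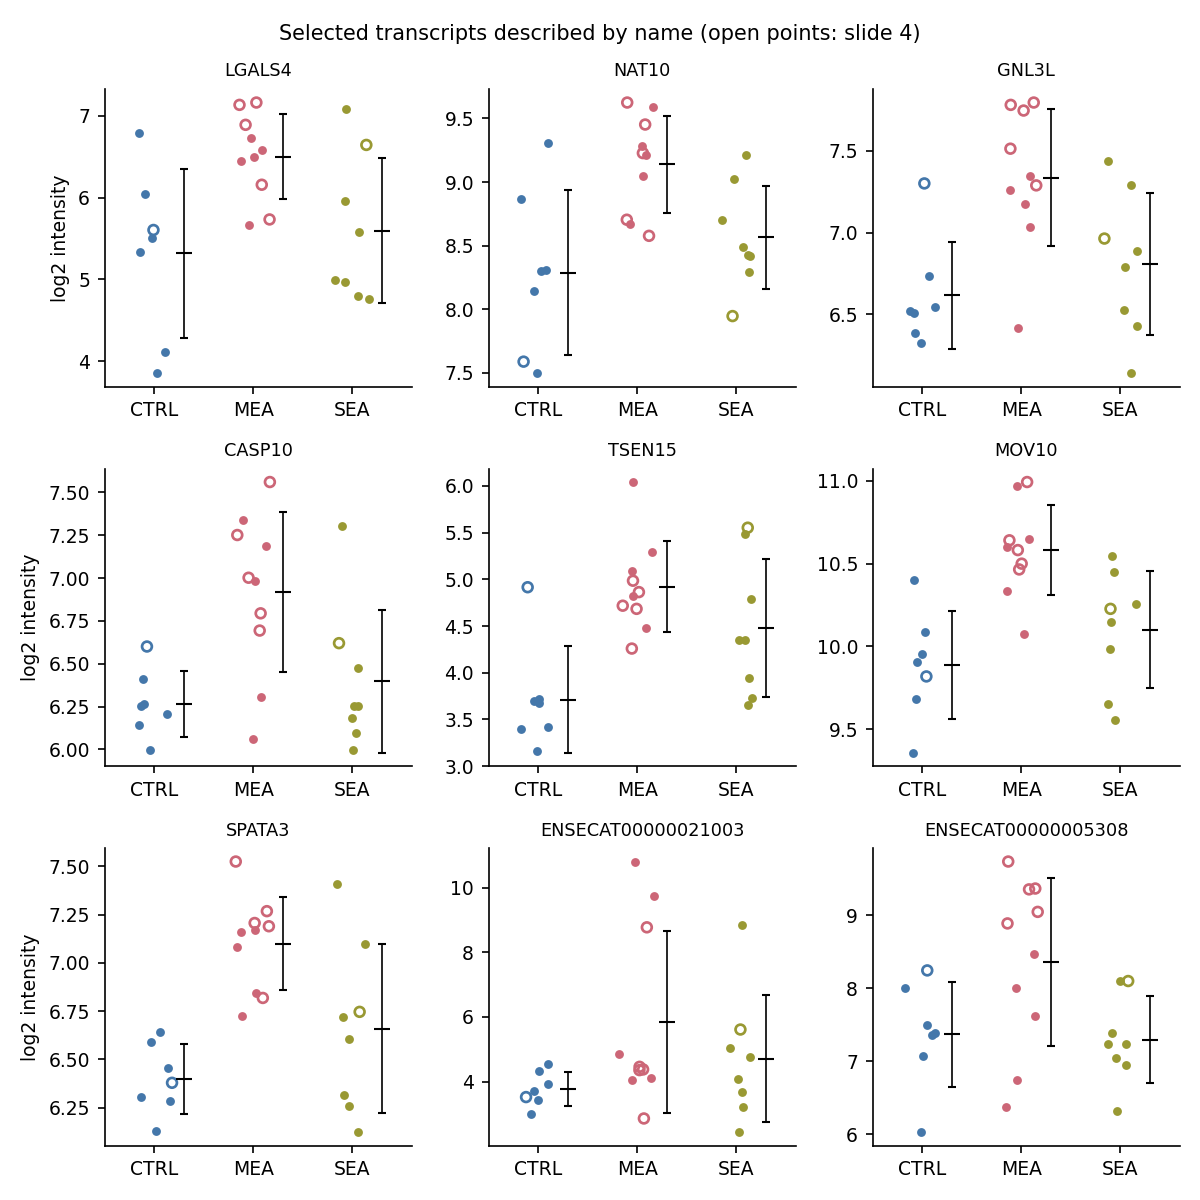
Log2 intensity of the 7 named and the 2 unnamed transcripts in each horse, by group (y axes differ and do not start at 0). Open points are arrays of slide 4, and the bar beside each group is its mean and SD over 7 CTRL, 10 MEA and 8 SEA horses; only SPATA3 has every MEA horse above every CTRL horse.

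The 2 unnamed transcripts with the largest peak differed in how many horses carried it. ENSECAT00000021003 was at 2.99 to 4.53 in CTRL, 2.86 to 10.81 in MEA and 2.44 to 8.85 in SEA, with medians of 3.70, 4.42 and 4.43. Its MEA mean of 5.84 ± 2.81 (SD, n = 10) came from 3 horses, MEA 1, MEA 4 and MEA 7, at 10.81, 9.75 and 8.77. The other 7 lay between 2.86 and 4.85, in and around the CTRL range, and 1 SEA horse (SEA 7) was also high at 8.85. Its spots were well above background on 4 of 7 CTRL, 8 of 10 MEA and 6 of 8 SEA arrays. Its mean difference from CTRL thus rested on 3 horses, and it was 2.06 without and 1.098 with normexp background correction.

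ENSECAT00000005308 was at 6.03 to 8.24 in CTRL (median 7.39), 6.38 to 9.73 in MEA (median 8.68) and 6.33 to 8.10 in SEA (median 7.24). In it 6 of 10 MEA horses lay above all CTRL and all SEA horses, while 2 lay below the CTRL mean. The 5 MEA arrays of slide 4 were among those 6. Its MEA difference from CTRL was 1.03 within slide 4 and -0.13 within slide 3, where 1 MEA array stood against 2 CTRL arrays.

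Across the 101 transcripts, the 10 MEA horses did not contribute alike. For each horse, the level of every selected transcript was taken relative to the mean of its 3 group means, and the median of these deviations over the 101 was recorded. It ran from -0.21 to 0.95 in MEA (median 0.49), from -0.44 to 0.043 in CTRL (median -0.30) and from -0.45 to 0.12 in SEA (median -0.25). MEA 10, MEA 8, MEA 3 and MEA 2 were highest, at 0.95, 0.89, 0.82 and 0.79. MEA 1 at -0.21, MEA 6 at 0.020 and MEA 4 at 0.12 lay inside the range of the other groups, where SEA 3 also reached 0.12. MEA 2 was above the centre in 96 of 101 transcripts and MEA 1 in 38. Among the controls CTRL 7 stood highest, at 0.043, and it was the highest control in 41 of 101 transcripts (40.6%), against 15.5% of tested transcripts.

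**Figure D3:**
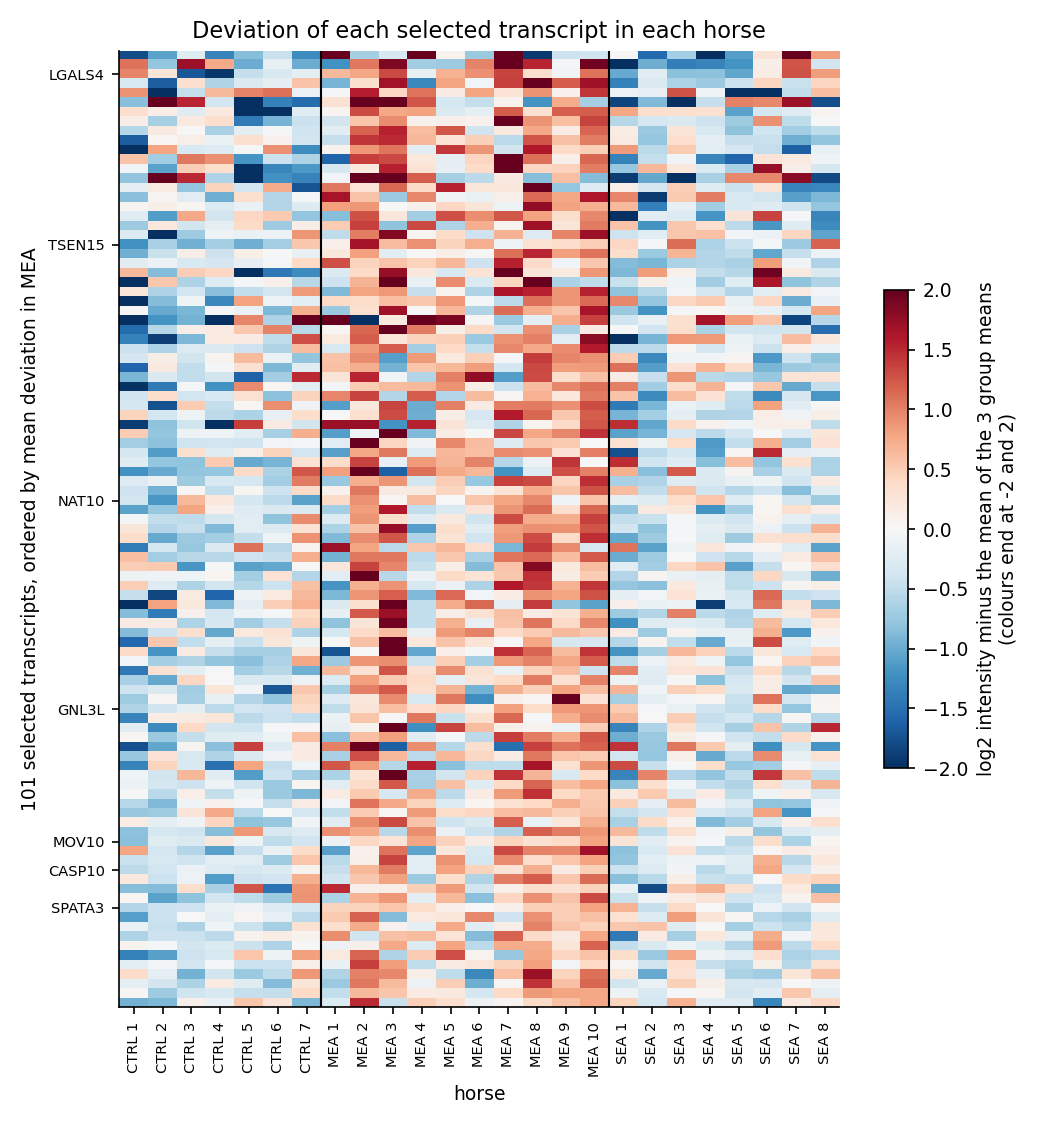
Deviation of each of the 101 selected transcripts (rows) from the mean of its 3 group means in each horse (columns), log2 intensity, ordered by the mean over MEA. Red is above and blue below; MEA 2, MEA 8 and MEA 10 are above the centre in 96, 92 and 92 rows, MEA 6 in 54 and MEA 1 in 38.

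In the heat map the rows differ in which MEA horses carry them. For a given transcript, a median of 8 of the 10 MEA horses lay above the CTRL mean (range 5 to 10) and a median of 8 above the SEA mean (range 4 to 10). All 10 lay above the CTRL mean in 20 transcripts and above the SEA mean in 8. The highest MEA horse was MEA 3 in 22.8% of the selected transcripts (20.9% of tested), MEA 8 in 19.8% (7.89%), MEA 10 in 16.8% (4.34%), MEA 2 in 15.8% (9.9%) and MEA 7 in 12.9% (18%). These MEA values also entered the selection, and the shares were not tested. The SD over MEA horses had a median of 0.73 in the selected transcripts (0.58 in CTRL and 0.57 in SEA), against 0.58, 0.48 and 0.56 in the tested ones. MEA had the larger SD of the pair in 71 of 101 transcripts against CTRL, where 67.7% of tested transcripts did, and in 70 of 101 against SEA, where 49.2% did.

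Within MEA, the selected transcripts rose and fell together more than transcripts at large. Over the 5050 pairs of selected transcripts the correlation across the 10 MEA horses had a median of 0.24, and 28.7% of pairs were above 0.5, against a median near 0 and 13.1% over all pairs of tested transcripts. The first component of the deviations within MEA held 41.3% of their variance in the selected transcripts and 31% in the tested ones, and 83 of the 101 had the same sign on it. Over all 25 horses, after removal of group means, it held 25.7% in the selected and 27.7% in the tested transcripts, and 68 of the 101 shared a sign. The pairs include those with one probe sequence. The same MEA arrays chose the transcripts, so this likeness is not independent of the selection.

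Slide and group are partly joined in this design, because slide 4 held 5 of the 10 MEA arrays. The median deviation was 0.45 to 0.95 in the 5 MEA horses of slide 4 and -0.21 to 0.79 in the other 5. Within MEA, the mean of slide 4 lay above that of the other slides in 72 of the 101 transcripts, against 50.2% of the tested transcripts. The median of this difference was 0.34, against 0.0035 over the tested transcripts. As the selected transcripts vary together, the 72 are not separate observations. Within each slide the MEA difference from CTRL over the selected transcripts had a median of 0.76 on slide 1 (2 MEA, 2 CTRL), 0.45 on slide 2 (2 and 2), 0.26 on slide 3 (1 and 2) and 0.63 on slide 4 (5 and 1). The MEA difference from SEA had medians of 0.55, 0.40, 0.24 and 0.86. MEA was the higher in 69 to 96 of 101 transcripts against CTRL and in 59 to 94 against SEA, with the smallest counts in both cases on slide 3, where 1 MEA array was present. The same arrays chose the transcripts, so these counts are a description.

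**Figure D4:**
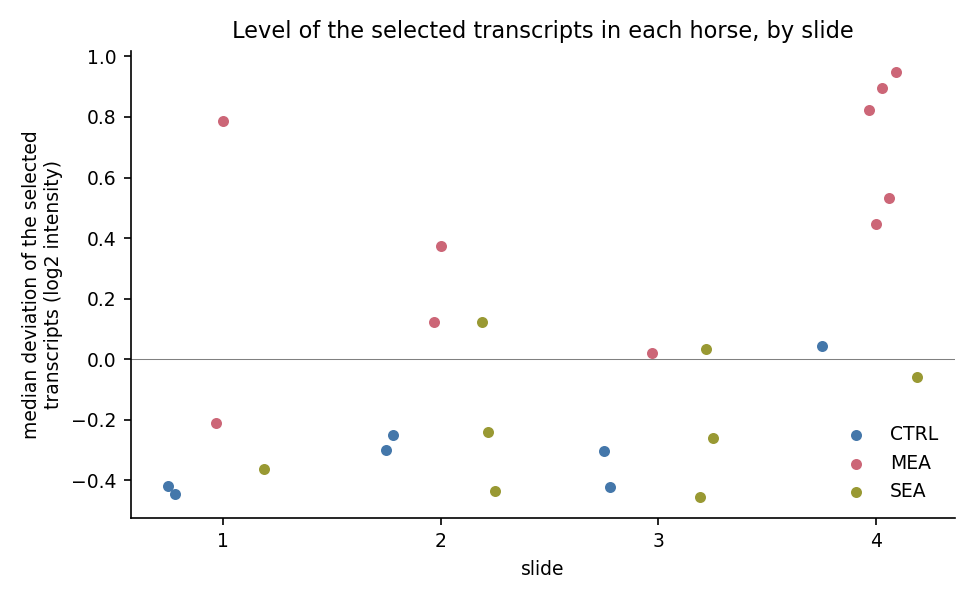
Median deviation of the 101 selected transcripts in each horse (y axis, log2 intensity) by slide (x axis), one point per horse. The 5 MEA horses of slide 4 lie between 0.45 and 0.95, and the single CTRL horse of slide 4 is the highest of its group at 0.043.

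With slide as a block in the fit, the median MEA difference over the 101 transcripts was 0.61 from CTRL in place of 0.73, and 0.46 from SEA in place of 0.60. The estimates stayed above zero in 101 transcripts against CTRL and in 100 against SEA. The called counts were 5 higher in MEA than in CTRL and 0 against SEA under that block. Over all 4930 tested transcripts, 171 were called in either direction between MEA and CTRL and 0 between MEA and SEA. When the selection itself was repeated without slide 4, on 5 MEA, 6 CTRL and 7 SEA arrays, 175 transcripts met the thresholds, of which 39 were among the 101 (38.6% of the 101 and 22.3% of the 175). This repeat was chosen after seeing the data. The part of the slide in the MEA level was not tested beyond these values.

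The selection also moved with single horses. Repeated with each of the 25 horses left out in turn, it gave 81 to 154 transcripts, of which 74 to 100 were among the 101, and 33 of the 101 were kept in all 25 repeats. The fewest were kept without MEA 8 (74), MEA 3 (75) and MEA 10 (75), and the most transcripts met the thresholds without MEA 1 (154) and MEA 6 (148), the horses with the lowest MEA levels. On spot 1 alone 129 transcripts met the thresholds and on spot 2 alone 117, and 63 of the 101 did so on each spot separately. These 2 repeats on single spots were also chosen after seeing the data.

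**Figure D5:**
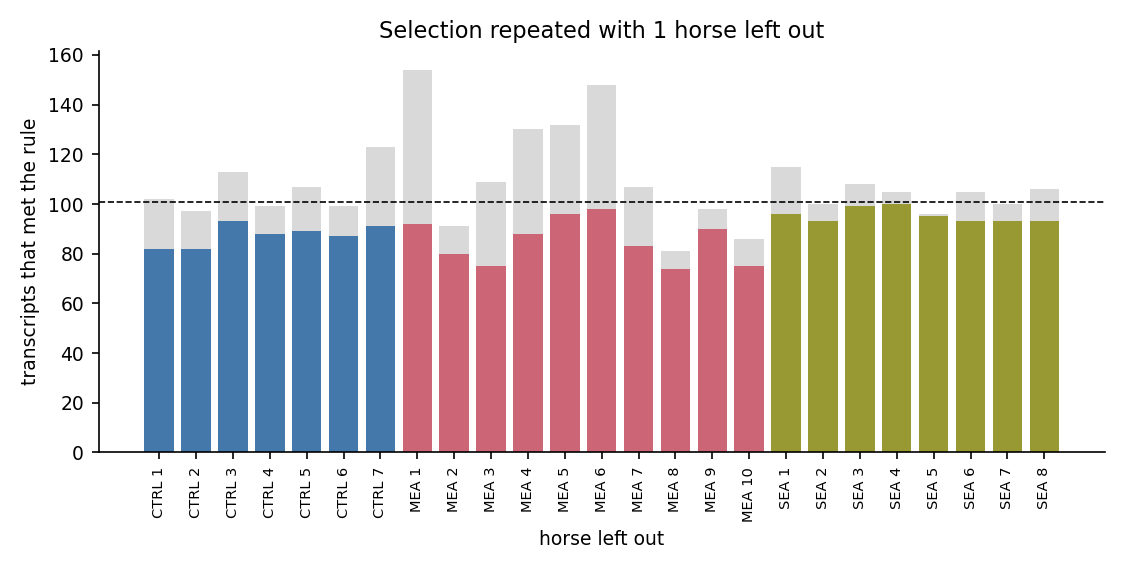
Number of transcripts that met the thresholds (y axis) when the selection was repeated without the horse named on the x axis. The coloured part of each bar is shared with the 101 selected transcripts (dashed line), from 74 without MEA 8 to 100 without SEA 4, and the grey part is not.

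Signal over background did not separate the selected transcripts from others by much. Both spots were well above background on all 25 arrays in 75 of the 101 (74.3%), against 67% of the tested transcripts, and on all 10 MEA arrays in 94. All CTRL arrays measured 77 of the 101 well above background and all SEA arrays 93. These counts by group were not set against the tested transcripts, so nothing is read from their differences. The 2 spots of a selected probe differed by a median of 0.18 on an array, against 0.16 in the tested ones. Within MEA the median deviation of a horse and its share of spots well above background had Pearson's r of -0.41 and Spearman's rho of -0.43 (n = 10), and r was -0.35 without the 2 horses farthest from the median share. The MEA arrays with more detected spots were not the ones with the higher median deviation.

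Cell percentages and sex did not enter the rule. The first question was whether, among the MEA horses, the selected transcripts followed the percentage of neutrophils or of lymphocytes counted in the same lavage fluid. In limma fits over all 4930 tested transcripts, 0 of 101 passed an adjusted p of 0.1 for the neutrophil slope within MEA (0.0203% of tested). At an unadjusted p below 0.05, 0 of 101 had a positive slope (2.62% of tested) and 3 a negative one (1.5% of tested). The slope was negative in 63 of 101 with a median of -0.058 log2 units per percentage point, against 0.00024 over the tested transcripts. GNL3L had one of the 3 smallest p-values among the selected transcripts, with a slope of -0.12 ± 0.051 (SE) and an adjusted p of 0.9 in limma.

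For lymphocytes, 0 of 101 passed the adjusted threshold within MEA (0% of tested), 0 had a positive slope at an unadjusted p below 0.05 (0.588% of tested) and 4 a negative one (0.892% of tested). The slope was negative in 73 of 101, with a median of -0.12 per percentage point against 0.012 over the tested transcripts. No single transcript passed the test, and as the selected transcripts vary together their signs are not separate observations. Within SEA, 0 of 101 passed the adjusted threshold for the neutrophil slope (0.0406% of tested), 2 had a positive slope at an unadjusted p below 0.05 (5.27% of tested) and 7 a negative one (5.82% of tested). Signs were close to even there, with 52 positive and 49 negative slopes. The median deviation and the neutrophil percentage had r of 0.039 and rho of 0.38 over the 8 SEA horses, and r was 0.82 without the 2 farthest from the median, so the value rested on those horses.

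Sex was close to balanced, with 4 of 7 CTRL, 5 of 10 MEA and 4 of 8 SEA horses female. In the limma fit of group and sex on 25 arrays, 0 of 101 selected transcripts passed the adjusted threshold (0% of tested). At an unadjusted p below 0.05, 3 of 101 were higher in females (2.96% of tested) and 2 in males (3.33% of tested). The smallest adjusted p of a selected transcript was 0.72.

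Markers of the cell types in lavage fluid were set beside the selected transcripts, and none of the marker transcripts was among the 101. The marker lists, too, could be matched only through the study's lists of changed transcripts. The macrophage list (7 of 10 transcripts tested) had a mean level of 8.84 in CTRL, 9.42 in MEA and 9.53 in SEA, with medians over horses of 8.92, 9.51 and 9.37. Of its 7 transcripts, 4 had their highest mean in SEA (CD68, MPEG1, TREM2 and EMR1), 2 in MEA (MARCO and C3AR1) and 1 in CTRL (VSIG4). None of the 7 was called between MEA and CTRL or MEA and SEA, and 5 were called higher in SEA than in CTRL (15.9% of all tested transcripts). The neutrophil list (10 of 11 transcripts tested) had a mean level of 9.15 in CTRL, 9.71 in MEA and 11.09 in SEA. Of its 10, none was called between MEA and CTRL and 9 were called higher in SEA than in CTRL.

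Ciliated epithelium followed the opposite order. Its 11 transcripts had a mean level of 10.09 in CTRL, 8.24 in MEA and 7.70 in SEA, and 10 of 11 were called lower in MEA than in CTRL (6.51% of all tested transcripts). Of the 10 transcripts of secretory and other epithelium, 3 were called lower in MEA than in CTRL, and their mean level was 8.84, 7.80 and 6.92. In the T and NK lymphocyte list 1 of 12 was called lower in MEA than in CTRL (KLRG1), which was also the only marker called between MEA and SEA (lower in MEA, lost with slide as a block), and in the B lymphocyte list 0 of 9, with mean levels of 6.082, 5.998 and 6.567 and of 9.15, 8.54 and 8.84. The macrophage list came closest to a highest level in MEA, by the median and not by the mean. The macrophage percentages counted by the study ran in the opposite order to the list's means, highest in CTRL and lowest in SEA. The level of the list therefore cannot be read as the macrophage share of the cells.

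Within MEA, the median deviation of the selected transcripts was compared with the mean level of each marker list over the 10 horses, among 9 such relations computed. Pearson's r was 0.088 for neutrophil, -0.018 for macrophage, -0.40 for T and NK lymphocyte, -0.13 for B lymphocyte, -0.22 for ciliated and 0.18 for secretory and other epithelial markers. Spearman's rho was -0.35, -0.0061, -0.43, -0.31, 0.042 and 0.16 in the same order. Without the 2 horses farthest from the median, r was -0.54, 0.32, -0.33, -0.32, -0.083 and 0.36, so the neutrophil and macrophage values changed with those horses and no relation was strong in all 3 measures. The counted percentages, matched to arrays by the horse labels that the study's table and the array titles share, did not follow the marker levels of the same horses, although the neutrophil markers rose from CTRL over MEA to SEA. The neutrophil percentage and the neutrophil markers had r of -0.39 and rho of -0.34 within MEA (n = 10; r -0.32 without the 2 farthest) and r of -0.39 and rho of -0.48 within SEA (n = 8; r 0.033 without the 2 farthest). Lymphocyte percentage within MEA had r of 0.22 and rho of 0.13 with T and NK lymphocyte markers (-0.060 without the 2 farthest) and r of -0.073 and rho of -0.14 with B lymphocyte markers (0.19 without the 2 farthest), among 4 such relations computed after seeing the data. The slopes on percentages therefore describe the counted percentages and cannot be read as slopes on the cell content of the arrays. For the counted percentages, r was -0.36 and rho -0.28 for neutrophils (-0.30 without the 2 farthest) and r was -0.30 and rho -0.25 for lymphocytes (-0.18 without the 2 farthest). The part of cell composition in the selected transcripts was not tested.

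Of the 7 named transcripts, TSEN15, MOV10 and CASP10 belonged to a function list and were set beside its other genes, of which those named below were chosen after their values were seen. Over all tested transcripts 3.23% were called higher and 6.51% lower in MEA than in CTRL, and 0.73% higher and 1.32% lower in MEA than in SEA. TSEN15 was 1 of 25 tested transcripts of an RNA-processing list, in which 9 were called higher and 2 lower in MEA than in CTRL and 0 in either direction against SEA. Splicing factor kinase PRPF4B had means of 6.07, 7.35 and 7.03 in CTRL, MEA and SEA, and PRPF3 9.24, 9.86 and 9.52, both with the highest mean in MEA and called against CTRL, but neither reached the thresholds against SEA. The helicase DDX5 was highest in SEA (13.31, 13.59 and 14.09). Without TSEN15, whose place was fixed by the rule, the list's median MEA difference from SEA was -0.22 over 24 transcripts.

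MOV10 was 1 of 25 tested transcripts of an interferon and antiviral list, with 6 called higher and 0 lower in MEA than in CTRL, and 5 called higher (0.73% of all tested) and 0 lower (1.32% of all tested) than in SEA. Of the 6, MOV10 and 3 transcripts with symbols set aside by the rule had met its thresholds, so 2 of the other 21 were called. The median MEA differences of those 21 were 0.20 from CTRL and 0.39 from SEA, against 0.027 and 0.036 over all tested transcripts. The 5 called higher than in SEA were TREX1, TRIM25, CMPK2 and 2 transcripts of IFI27L1. All 5 were called lower in SEA than in CTRL, and none of them between MEA and CTRL. Over the whole list, 7 were called higher (15.9% of all tested) and 8 lower (16.6% of all tested) in SEA than in CTRL. With slide as a block, 0 of the 4930 tested transcripts were called between MEA and SEA in limma, so the 5 calls were lost, and all calls between MEA and CTRL fell from 480 to 171. The kinase EIF2AK2, a sensor of double-stranded RNA, had means of 8.17, 8.99 and 8.60 in CTRL, MEA and SEA. It was called higher in MEA than in CTRL, but its MEA difference from SEA of 0.39 ± 0.25 (SE) was not called. TREX1, an exonuclease that degrades DNA in the cytosol, was at 10.47, 10.51 and 9.59, higher in MEA than in SEA and level with CTRL. Other transcripts of the list were highest in SEA, among them TLR8 (10.27, 11.11 and 11.5) and TICAM1 (7.91, 8.41 and 9.02).

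CASP10 was 1 of 18 tested transcripts of a cell death and survival list, with 7 called higher and 2 lower in MEA than in CTRL, CASP10 among them, and 1 higher than in SEA, which was also lost with slide as a block. The death receptor FAS, in whose signalling complex CASP10 can act, had 2 transcripts called higher in MEA than in CTRL, with MEA means of 7.00 and 6.97 against 5.77 and 5.54. Their SEA means of 6.69 and 6.75 lay close to those of MEA. Anti-apoptotic MCL1 was highest in SEA (12.75, 13.23 and 14.31). Because these lists could be matched only to transcripts that the study had already listed from these arrays, their counts are not independent evidence of a direction.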

How the data were processed

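Total RNA from BAL fluid cells was measured on 25 one-color Agilent arrays, 1 per horse. Per the labels, groups were diagnosis Control (CTRL, n = 7), IAD (MEA, n = 10) and RAO (SEA, n = 8). The deposited scanner files hold spot intensities from Agilent's feature extraction, and the authors' series table holds intensities that the authors normalized by cyclic loess; the submitters' processing notes name R 2.11.1. The selection was applied to the authors' intensities. All other values were computed here from the processed green signals: log2, cyclic loess (span 0.7, 3 iterations) and the mean of the 2 spots per probe. They correlated with the authors' intensities at r = 0.9995. Transcripts with a log2 intensity below 4.5 in 19 or more of the 25 arrays were dropped, which left 4930 of 7238.

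Groups were compared in pairs with limma 3.58.1 (lmFit and eBayes, default settings) in R 4.3.3 with the data.table package (version 1.17.8), Benjamini-Hochberg adjustment over all tested transcripts, and calls where the adjusted p was under 0.1 and the fold change 1.5 or more. Because the selection used the group means, these 3 contrasts served as description. Slopes on cell percentages within MEA and within SEA, and females against males with group in the fit, were tested with the same tool at an adjusted p below 0.1, with counts at an unadjusted p below 0.05 beside them. Cell percentages and sex per horse came from the study's own table of horses and were matched to the arrays by the horse labels in the array titles, on which the fits on percentages and sex depend. The scripts were tested on simulated data.

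Named transcripts were those that the study's lists pair with a symbol, and the 2 without a symbol that had the largest peak. The transcripts and the lists of functions and cell markers were chosen with earlier results of these data known. Alternatives were other normalizations, background correction (normexp with an offset of 50), filters, limma settings, thresholds, a rank sum test, slide as a block, replicate number as a block and each horse left out in turn. Comparisons without slide 4, on slide 4 alone and on single spots, and the relations of counted percentages to marker levels, were added after seeing the data.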

Additional observations from a re-analysis of the deposited data

Results flagged for a closer look

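One horse, CTRL 7, lay far from the other controls in 3 of the 11 sets of CTRL values examined, among 33 sets over all groups. Chance picks out about 1 in 20 sets at the limit used, Dixon's 95% critical value. Its GNL3L level was 7.301 (nearest control 6.731), its TSEN15 level 4.915 (nearest control 3.719) and its median deviation over the selected transcripts 0.04289 (nearest control -0.2509). The values share 1 array, so they are not separate observations, and the cause was not tested.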

How the results depend on the processing

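The number of selected transcripts (101) was 101 with cyclic loess of the scanner values, 133 with quantile normalization, 154 with 75th percentile scaling and 22 with normexp background correction; it was 175 without slide 4 and 453 on slide 4 alone. Leaving out 1 horse gave 81 (without MEA 8) to 154 (without MEA 1). Calls of MEA against CTRL (26) were 16 with 75th percentile scaling, 3 with normexp, 12 with no filter, 5 with slide as a block, 4 at an adjusted p below 0.05, 16 in the rank sum test and 14 without slide 4, and 4 (without CTRL 6) to 37 (without CTRL 7) with 1 horse left out. Over all tested transcripts the calls of MEA against CTRL, in either direction, were 480. They were 156 with normexp, 171 with slide as a block and 136 with the replicate block. Calls of MEA against SEA (3) were 0 with 75th percentile scaling, quantile normalization, normexp, no filter, slide as a block, an adjusted p below 0.05, the rank sum test and without slide 4, 1 in the authors' values and 7 with all 25 arrays in 1 fit, and 0 (without SEA 2, among others) to 12 (without MEA 3) with 1 horse left out. Calls of SEA against CTRL (1) were 2 with quantile normalization and 0 with normexp, no filter, the filter on spots above background, trend and robust, and an adjusted p below 0.05, and 0 (without CTRL 1, among others) to 3 (without SEA 7) with 1 horse left out. No selected transcript was called for a slope or for sex under any alternative, except 2 for the neutrophil slope within SEA without SEA 1 (range 0 to 2). The 75th percentile scaling moved the median MEA difference from SEA of all tested transcripts from 0.036 to 0.11. Within single slides these differences turned: MEA minus CTRL of TSEN15 -0.21 (slide 4), ENSECAT00000021003 -0.39 (slide 3) and ENSECAT00000005308 -0.13 (slide 3), and MEA minus SEA of LGALS4 -0.029 (slide 4), GNL3L -0.65 (slide 1), TSEN15 -0.85 (slide 4), MOV10 -0.11 (slide 1), SPATA3 -0.25 (slide 1) and ENSECAT00000021003 -1.66 (slide 3) and -0.65 (slide 4). With the replicate block, calls were 2, 0 and 0 in the 3 contrasts. Over samples of 1 number the correlations ran from -0.441 to 0.356 (CTRL and MEA, 7 pairs), -0.364 to 0.407 (MEA and SEA, 8 pairs) and -0.172 to 0.308 (CTRL and SEA, 7 pairs). Of these pairs, 4, 3 and 3 were above 0.1. Samples of 1 number were different horses, and some shared a slide, as those numbered 1 did on slide 1. Whether they share more than number and slide was not tested. In all these the cause was not tested.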

Other observations

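The other lists of functions held no selected transcript. In chromatin and transcription, 6 of 26 were called higher and 2 lower in MEA than in CTRL, and in ion transport 6 of 19 higher and 1 lower, where 3.23% of all tested transcripts were called higher and 6.51% lower. All calls between MEA and CTRL fell from 480 to 171 with slide as a block. Among tyrosine phosphatases 4 of 20 were called higher and 5 lower, and in lipid metabolism 1 of 10 higher and 2 lower. Against SEA, 1 ion transport transcript and 1 tyrosine phosphatase were called higher in MEA (0.73% of all tested). Both calls were lost with slide as a block, with 75th percentile scaling, with normexp background correction and without slide 4, where 0 of all tested transcripts were called in limma. These lists, too, could be matched only to transcripts that the study had listed from these arrays.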
